A study of Mus musculus with 2 samples.

Results

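The genes *Spp1*, *Gpnmb*, *Igf1*, *Clec7a*, *Lpl*, *Cst7*, *Fabp5*, *Lgals3*, *Ch25h* and *Lilrb4a*, were taken by name as the core of the program that microglia show around CD11c expression in development and disease. Of these 10 genes, 9 were among the 13549 genes of the deposited count table and 1, *Ch25h*, was not analysed here. Microglia are the resident macrophages of nervous tissue. They were sorted from retinas of postnatal day 5 mice of the genotype CD11c-Cre-gfp;Rosa-TDTom, in which the promoter of *Itgax*, the gene of the integrin subunit CD11c, drives a Cre recombinase with GFP, and Cre switches on TdTomato permanently. The Cd11c-active library came from 4041 cells with both colours, GFP+TdTom+, and the Cd11c-lineage library from 5441 cells with TdTomato alone, GFP-TdTom+. Both populations came from the same 8 retinas, and all cells carried the same transgenes. The labels give 4 female and 4 male without saying whether these are retinas or animals. The sort therefore compared cells using the CD11c promoter with cells that had used it before, as far as the reporter shows, and no cells without a history of the promoter were in the series. Each group had 1 library, so no difference below has a replicate check.

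The 9 measured genes belong to a program that microglia turn on while they clear dying cells and debris and while white matter develops, and that reappears around plaques and in demyelination. It joins secreted signals (osteopontin, IGF1 and galectin 3), proteins that take up and carry lipid (lipoprotein lipase and FABP5), an inhibitor of lysosomal proteases (cystatin F) and membrane proteins (GPNMB, the lectin receptor Dectin-1 and the inhibitory receptor LILRB4). Lipid from engulfed membranes passes through the lysosome, and several of these products act on that route.

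Of the 9 genes, 7 had a higher CPM in Cd11c-active (counts scaled to a library of common size), as did 50.2% of all genes, and 2, *Igf1* and *Lilrb4a*, had more in Cd11c-lineage. *Fabp5*, *Lgals3*, *Gpnmb* and *Cst7* were at least 2-fold higher in Cd11c-active (a log2 ratio of at least 1), as were 23.3% of the 13037 genes in the table with 20 reads or more. *Lilrb4a* was at least 2-fold lower, as were 21.6% of all genes. These shares of all genes are large because the libraries differed widely at low counts, so a 2-fold difference means little for a gene with few reads and more for a gene with many. The median log2 ratio of the 9 genes was 0.80, beside 0.01 for all genes. In a bulk library, fewer cells with a transcript and less of it per cell cannot be told apart.

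The libraries differed by more than independent reads would. Among genes of like abundance the variance of the log2 ratio was 74.3 to 86.3 times the counting variance from 200 to below 3200 reads, 105 times from 3200 to below 6400 reads and 144 times in the range above that, which holds *Lpl*. Each ratio is therefore given with a 95% counting interval and with a widened interval, in which the reads were divided by this factor, the overdispersion, for the range of reads the gene falls in. The widened interval takes the typical gene as unchanged, so true differences spread over many genes, if present, count as error in it. It left out 0 on the higher side for 1 of the 9 genes, *Fabp5*, and for 1.53% of all genes. On the lower side it did so for 0 of the 9 genes and for 0.407% of all genes. By the counting interval all 9 genes left out 0, 7 higher and 2 lower, and so did 43.3% and 43.0% of all genes.

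**Figure D1:**
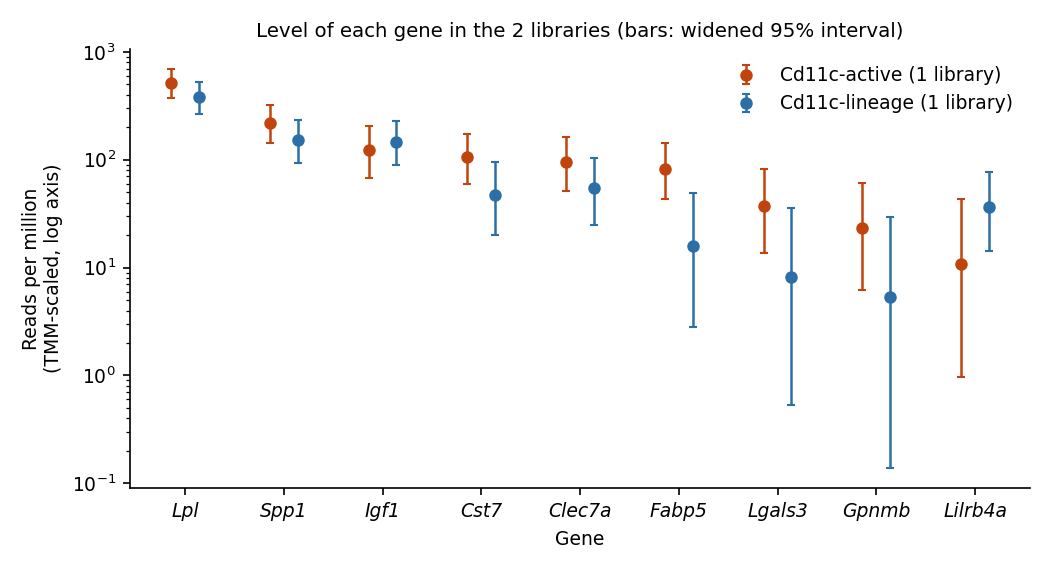
CPM (scaled with TMM factors, log axis) of each of the 9 genes in the 2 libraries, with points for the value and bars for the widened 95% interval. *Lpl* is the highest in both libraries, and *Fabp5*, *Lgals3* and *Gpnmb* show the widest gaps with the higher point in Cd11c-active.

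Among the secreted signals, *Spp1* (ENSMUSG00000029304) encodes osteopontin, a phosphoprotein of the extracellular matrix that binds integrins and CD44. The Cd11c-active library held 2721 reads of it and the Cd11c-lineage library 2138, which is 220 and 152 CPM. Both libraries thus held *Spp1* at a high level, with the Cd11c-active value somewhat above the other. The log2 ratio was 0.53 (counting interval 0.45 to 0.62, widened interval -0.36 to 1.45), so a difference of up to 2.73-fold lay inside the widened interval and so did equal levels.

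*Lgals3* (ENSMUSG00000050335) encodes galectin 3, a lectin that binds galactose-containing sugars inside and outside the cell. Its reads numbered 463 among Cd11c-active and 114 among Cd11c-lineage, which is 37.5 and 8.11 CPM. The gap was 4.61-fold and *Lgals3* was one of the least abundant of the 9 genes in Cd11c-lineage. On the log2 scale the ratio was 2.20 (counting 1.91 to 2.52, widened -0.54 to 6.39). Among the 2014 genes with 400 to below 800 reads, 22.5% were at least 2-fold higher in Cd11c-active.

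*Igf1* (ENSMUSG00000020053), a growth factor that supports neurons and myelinating cells, went the other way. Cd11c-lineage held 2062 reads of it and Cd11c-active 1526, which is 147 and 124 CPM. Its ratio on the log2 scale was -0.25 (counting -0.34 to -0.15, widened -1.34 to 0.81). This is the smallest departure from equal levels among the 9 genes, and it turned to 0.046 after correction for a trend of the ratios with transcript length and GC content. *Igf1* has the longest coding transcript of the 9 (7052 bases) and the lowest GC content (38.0%).

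Of the genes of lipid handling, *Lpl* (ENSMUSG00000015568) encodes lipoprotein lipase, which releases fatty acids from triglyceride in lipoproteins. It had the most reads of the 9 genes, 6359 from Cd11c-active and 5348 from Cd11c-lineage, which is 515 and 381 CPM. The log2 ratio was 0.44 (counting 0.38 to 0.49, widened -0.23 to 1.11), and at this depth the widened interval held differences between 0.854-fold and 2.15-fold. It was the narrowest widened interval of the 9.

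*Fabp5* (ENSMUSG00000027533) encodes a carrier that moves fatty acids through the cytosol. Cd11c-active gave 1018 reads and Cd11c-lineage 222, which is 82.5 and 15.8 CPM. This was the largest ratio of the 9 genes, 5.21-fold, or 2.38 on the log2 scale (counting 2.17 to 2.60, widened 0.42 to 5.04). The lower end of the widened interval put *Fabp5* 1.34-fold higher in Cd11c-active. Among the 1984 genes with 800 to below 1600 reads, 12.6% were at least 2-fold higher and 2.52% had a widened interval above 0. The third gene of this group by role, *Ch25h*, encodes the enzyme that makes an oxysterol from cholesterol and has no value here.

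*Cst7* (ENSMUSG00000068129) encodes cystatin F, an inhibitor of lysosomal cysteine cathepsins. Cd11c-active gave 1310 reads and Cd11c-lineage 668, which is 106 and 47.5 CPM. The ratio was 1.16 on the log2 scale (counting 1.02 to 1.29, widened -0.18 to 2.62), a 2.23-fold difference. Among genes with 1600 to below 3200 reads, 4.82% were at least 2-fold higher in Cd11c-active, so a ratio of this size was less common at the abundance of *Cst7* than at that of *Lgals3*. The same correction for length and GC content gave 0.86, which is under the 2-fold threshold.

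Of the 3 membrane proteins, *Gpnmb* and *Clec7a* had ratios above 0 and *Lilrb4a* one below, but all 3 widened intervals held 0. The differences from *Lilrb4a*, 3.89 (-0.10 to 7.89) for *Gpnmb* and 2.57 (-0.16 to 5.30) for *Clec7a*, held 0 as well. *Gpnmb* (ENSMUSG00000029816) encodes a glycoprotein of lysosomes and the cell surface. Its reads numbered 289 among Cd11c-active and 75 among Cd11c-lineage, which is 23.4 and 5.34 CPM, and it was the least abundant of the 9 genes over both libraries. A log2 ratio of 2.13 (counting 1.76 to 2.52, widened -1.22 to 7.72) resulted. The 75 reads in Cd11c-lineage, divided by the overdispersion of 74.3 at this abundance, come to 1.01, which is why the widened interval is so broad. In that range, from 200 to below 400 reads, 27.1% of 1670 genes were at least 2-fold higher.

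*Clec7a* (ENSMUSG00000079293) encodes Dectin-1, a receptor for fungal glucans that signals through the kinase SYK. The Cd11c-active library held 1179 reads of it and the Cd11c-lineage library 769, which is 95.5 and 54.7 CPM. The log2 ratio was 0.80 (counting 0.67 to 0.94, widened -0.52 to 2.20), which makes it the middle gene of the 9 and is short of 2-fold. The deposited table lists the gene as a polymorphic pseudogene, a label for genes that are intact in some strains and not in others.

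*Lilrb4a* (ENSMUSG00000112148) encodes an inhibitory receptor of the leukocyte immunoglobulin-like family. Cd11c-lineage gave 517 reads and Cd11c-active 133, which is 36.8 and 10.8 CPM. It was 3.41-fold higher in Cd11c-lineage, opposite to *Gpnmb* and *Clec7a*. The log2 ratio was -1.77 (counting -2.06 to -1.49, widened -5.50 to 0.79). Among genes with 400 to below 800 reads, 16.7% were at least 2-fold lower in Cd11c-active.

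**Figure D2:**
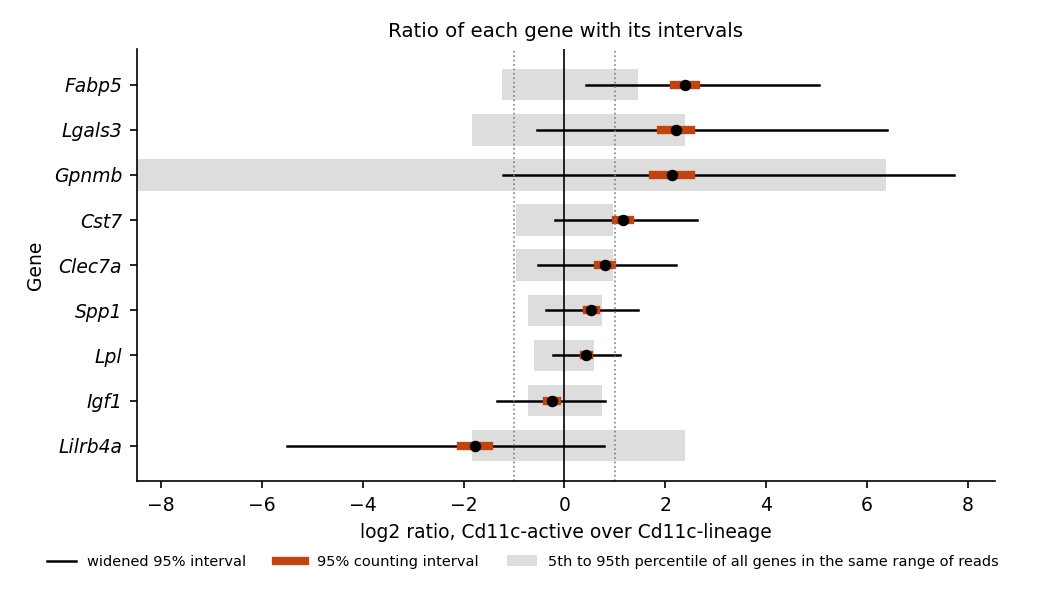
Log2 ratio of each gene, Cd11c-active over Cd11c-lineage, as a point with its counting interval (thick) and widened interval (thin); the grey band runs from the 5th to the 95th percentile of all genes in the same range of reads and dotted lines mark a 2-fold difference. *Fabp5* and *Cst7* lie beyond the band, and the widened interval of *Fabp5* alone is clear of 0.

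Set against genes with similar numbers of reads, 7 of the 9 genes lay between the 5th and the 95th percentile of the log2 ratio. *Fabp5* lay above the 95th percentile of its range, 1.47, and *Cst7* above that of its range, 0.97. The ratio of *Lgals3* lay below the 95th percentile of its range, 2.38, although it was nearly as large as that of *Fabp5*. *Gpnmb* was well inside its band, whose 95th percentile was 6.38. These percentiles describe the pair of libraries and are no test.

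**Figure D3:**
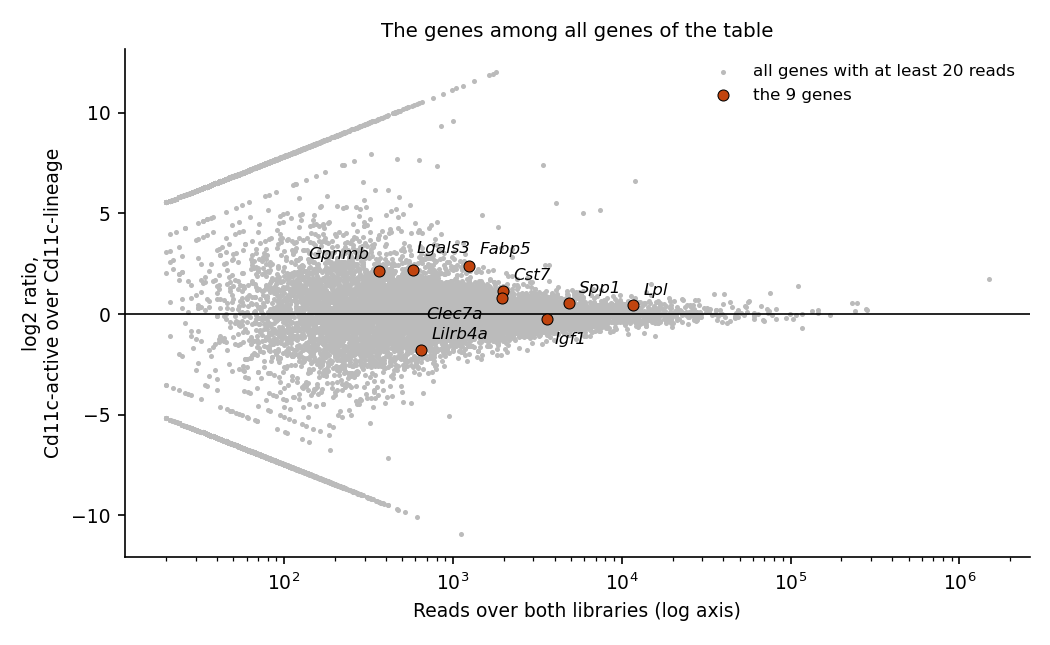
Log2 ratio against reads over both libraries (log axis) for all genes with 20 or more reads (grey) and the 9 genes (red, named); the straight lines of grey points at the top and the bottom are genes with 0 reads in either library. The spread narrows toward abundant genes, so that *Gpnmb* with 364 reads sits inside a cloud that *Fabp5* with 1240 reads lies at the edge of.

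The difference between the ratios of a pair of members does not depend on how the libraries are scaled, but it does depend on a correction for transcript length and GC content. Of 36 such pairs, the approximate 95% interval of the difference, with the overdispersion of both genes, left out 0 in 4. In 3 of the 4 pairs *Lilrb4a* was the lower gene. *Fabp5* exceeded *Lilrb4a* by 4.15 on the log2 scale (1.04 to 7.26), *Lgals3* did so by 3.97 (0.38 to 7.56) and *Cst7* by 2.93 (0.18 to 5.67). The remaining pair was *Fabp5* over *Igf1*, with 2.63 (0.48 to 4.78). With the trend of the ratios with length and GC content removed, 4 pairs again left out 0, but *Fabp5* over *Igf1* (2.12, -0.03 to 4.27) and *Cst7* over *Lilrb4a* (2.73, -0.02 to 5.48) no longer did, and *Gpnmb* and *Clec7a* over *Lilrb4a* came in by lower ends of 0.014 and 0.0044. The intervals of *Fabp5* and *Lgals3* over *Lilrb4a* left out 0 both ways. These intervals are not adjusted for the number of pairs, 3 of the 4 rest on the counts of *Lilrb4a*, and the other 32 pairs are not shown to be alike.

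Levels between genes were compared per length of the longest coding transcript, as RPKM (CPM per kilobase). In Cd11c-active *Spp1* (146), *Lpl* (125) and *Cst7* (108) led, followed by *Fabp5* (83.5) and *Clec7a* (41.9). *Lgals3* (26.4) and *Igf1* (17.5) came next, with *Lilrb4a* (7.80) and *Gpnmb* (6.32) last. In Cd11c-lineage *Spp1* (101), *Lpl* (92.5) and *Cst7* (48.2) led again, and *Lilrb4a* (26.6) came after them. *Clec7a* (24.0), *Igf1* (20.8) and *Fabp5* (16.0) followed, with *Lgals3* (5.72) and *Gpnmb* (1.44) last. The leading 3 genes and *Gpnmb* at the end thus held the same places in both libraries, while *Fabp5* stood at place 4 in Cd11c-active and at place 7 in Cd11c-lineage. In 0 of the 16 pairs of neighbours in these orders did the interval of the difference leave out 0, so no step between neighbours was larger than its error. The 9 genes made up 0.116% of all reads in Cd11c-active (0.114 to 0.118, Wilson interval at 95%) and 0.0889% in Cd11c-lineage (0.0873 to 0.0905), where the intervals cover counting error only.

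Sequence shared with other genes can move reads between gene models, and *Lilrb4a* is the member it touches most. In the GENCODE transcripts of an older mouse build, 27.8% of the 50-base windows of the *Lilrb4a* transcript also occur in *Lilr4b*, its neighbour in the family, and 100% occur in a gene model named Gm49339, which was not analysed here. *Lilr4b* itself had 49 reads, all of them from Cd11c-lineage, and 0 from the other library. Its reads thus lay in the same library as the larger count of *Lilrb4a*. The coding sequences of the pair were identical at 871 of 907 aligned bases (96.0%). A stretch of 90 coding bases with a typical number of differences is shown, bases 60 to 149 from the start codon in both genes, with the 4 differing bases in capitals.
Lilrb4a: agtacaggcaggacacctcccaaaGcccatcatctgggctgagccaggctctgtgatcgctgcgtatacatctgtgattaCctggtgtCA
Lilr4b: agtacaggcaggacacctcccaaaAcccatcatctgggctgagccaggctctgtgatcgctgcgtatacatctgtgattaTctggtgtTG
Reads from windows without a difference fit both genes, and the intervals of *Lilrb4a* do not cover how such reads were assigned. For *Fabp5*, 21.1% of windows also occur in other gene models, most of them in Gm6166. For *Spp1* this share was 9.05% and for *Lpl* 3.98%, and it was 0% for *Gpnmb*, *Igf1*, *Clec7a*, *Cst7* and *Lgals3*. How the authors' counting treated reads that fit several genes is not given in the sources used here.

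Promoter sequence from RefSeq (GRCm38.p6, 250 bases before to 50 after each transcription start) was matched by symbol for 7 of the 10 genes, and *Lpl*, *Fabp5* and *Lilrb4a* had no entry. The 7 genes had 9 promoters, 2 each for *Spp1* and *Clec7a*, and those of *Clec7a* overlap. The word TGANTCA, bound by AP-1 factors, occurred in 3 of the 9 promoters, those of *Cst7*, *Gpnmb* and *Igf1*, and in 7.81% of all 32851 promoters. The word GAGGAA, the core bound by the myeloid factor PU.1, occurred in 4 of the 9, both of *Clec7a*, 1 of the 2 of *Spp1* and that of *Igf1*, and in 28.3% of all promoters. The overlapping promoters of *Clec7a* hold the same site. Counted by gene, the word occurred in 3 of 7, beside 31.3% of all genes with a promoter. TATAAA occurred in 3 of the 9, 1 each of *Spp1*, *Clec7a* and *Ch25h*, and in 13.6% of all. The E-box words CATGTG and CACGTG, bound by the MiT/TFE factors of lysosomal genes, occurred in 0 of the 9 and in 14.2% and 7.15% of all. Both strands were searched, and each word was counted separately. The windows from 150 bases before to 20 after the start are shown for promoters with AP-1 or PU.1 words, 1 for each gene, so that the placing of the words can be compared. The ratios of *Cst7* and *Gpnmb* are not shown to differ from that of *Igf1*, with differences of 1.41 (-0.18 to 2.99) and 2.37 (-0.93 to 5.68). Capitals mark TGANTCA and GAGGAA.
Cst7, chr2:150570265-150570434, plus strand: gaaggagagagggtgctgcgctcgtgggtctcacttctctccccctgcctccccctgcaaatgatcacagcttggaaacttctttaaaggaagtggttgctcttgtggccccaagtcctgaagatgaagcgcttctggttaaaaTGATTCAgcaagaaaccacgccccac
Gpnmb, chr6:49036368-49036537, plus strand: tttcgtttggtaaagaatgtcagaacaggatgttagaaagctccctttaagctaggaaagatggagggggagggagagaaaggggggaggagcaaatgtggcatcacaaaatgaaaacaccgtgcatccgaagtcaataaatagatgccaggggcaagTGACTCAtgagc
Igf1, chr10:87860961-87861130, plus strand: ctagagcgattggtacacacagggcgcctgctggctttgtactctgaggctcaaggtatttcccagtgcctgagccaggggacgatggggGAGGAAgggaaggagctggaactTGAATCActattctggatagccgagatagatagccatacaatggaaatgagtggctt
Spp1, chr5:104434961-104435130, plus strand: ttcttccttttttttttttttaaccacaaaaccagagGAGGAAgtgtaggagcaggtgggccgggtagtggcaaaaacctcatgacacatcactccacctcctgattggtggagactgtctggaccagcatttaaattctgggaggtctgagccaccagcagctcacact
Clec7a, chr6:129472760-129472929, minus strand: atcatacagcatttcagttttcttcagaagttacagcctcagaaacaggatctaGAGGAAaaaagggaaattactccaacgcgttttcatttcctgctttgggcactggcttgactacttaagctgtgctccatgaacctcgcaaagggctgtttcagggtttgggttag
The AP-1 word spanned the start site in *Cst7*, from base -6 to base 1, lay from base 9 to 15 in *Gpnmb* and from base -37 to -31 in *Igf1*. A match is a description of these letters and not of a bound site, and *Lgals3*, also higher in Cd11c-active, held neither word.

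Other genes of the same program were taken from lists. The wider developmental and disease-associated list, with none of the 9 genes in it, had 32 measured genes, of which 28 were higher and 4 lower in Cd11c-active, beside 50.2% of all genes higher, with a median log2 ratio of 0.56 beside 0.01 for all genes. The widened interval was above 0 for 8 of them and below 0 for 0, beside 1.53% and 0.407% of all genes. All genes with such an interval had at least 200 reads, 199 above 0 and 53 below among 8951. Of this list 30 genes had at least 200 reads, so the shares of all genes are a low background for it. The 8 became 6 under library totals, without *Apoe* and *Cd52*, 7 under summed microglia markers, without *Apoe*, and 3 with the length and GC trend removed, where *Anxa2*, *Ctsd* and *Ctsb* were left and *Apoe* lay below 0. *Anxa2* (1379 and 341 reads, ratio 2.20, widened 0.56 to 4.26), an annexin that binds membranes at calcium signals, had the largest ratio of these 8. *Cd52* (1082 and 389 reads) stood at 1.66 (0.04 to 3.58), and *Vim* (2069 and 1005), which encodes vimentin, at 1.23 (0.16 to 2.38). *Fth1*, the heavy chain of ferritin, stood at 1.10 (0.16 to 2.08) and *Cd68*, a lysosomal membrane glycoprotein, at 0.88 (0.19 to 1.59). The abundant cathepsins *Ctsd* at 0.57 (0.36 to 0.78) and *Ctsb* at 0.55 (0.34 to 0.75), and *Apoe*, the lipid carrier with the most reads of the list, at 0.22 (0.03 to 0.41), were shifted less. Their intervals are narrow because they are among the most abundant genes. The highest range of reads holds these 3 and *Fth1* (9029 and 4808 reads), and not *Anxa2*, *Cd52*, *Vim* or *Cd68*. In that range 7.94% of genes had a widened interval above 0. Endothelial and mural cell markers, which summed to 820 and 61.8 CPM in Cd11c-active and to 73.7 and 2.21 in Cd11c-lineage, moved the same way as this list, and their part in its ratios was not tested.

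**Figure D4:**
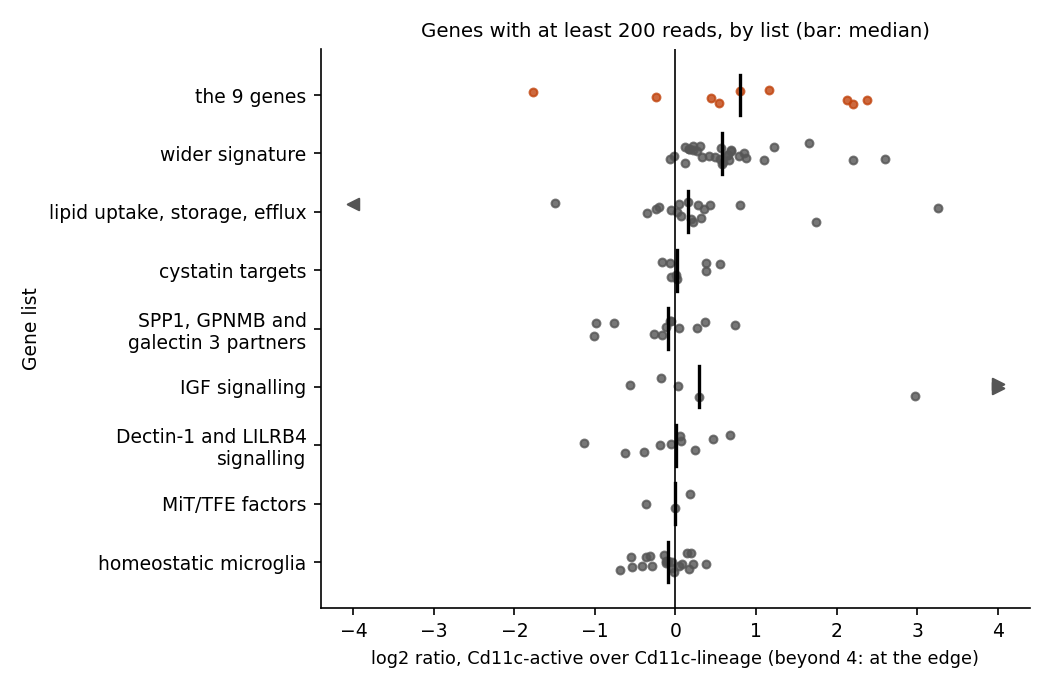
Log2 ratio, Cd11c-active over Cd11c-lineage, of the genes with at least 200 reads in each list (points, spread vertically for legibility), with a bar at the median and arrowheads for genes beyond 4. The 9 genes (red, median 0.80) span from -1.77 to 2.38, and the homeostatic genes cluster near 0 with a median of -0.09.

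Of 12 measured receptors and binding partners of osteopontin, GPNMB and galectin 3, 4 were higher and 8 lower, with a median of -0.10 and 0 widened intervals clear of 0. *Itgb5* and *Itgb1*, integrin subunits and the most abundant of these, had ratios of -0.07 (-0.55 to 0.40) and -0.12 (-0.86 to 0.61). The integrin subunits *Itga9* at -1.02 (-2.28 to 0.13) and *Itgb3* at -0.99 (-2.19 to 0.11), named after their values were seen, had ratios farther from 0. Of 8 cathepsin, legumain and cystatin genes linked to cystatin F, 5 were higher and 3 lower, with a median of 0.01. *Ctsb* had the interval above 0 given before, and *Ctss* had a ratio of -0.06 (-0.37 to 0.25). Of 10 genes of signalling from Dectin-1 and through LILRB4, 5 were higher and 5 lower, with a median of 0.002 and 0 widened intervals clear of 0. The kinase *Syk* stood at 0.07 (-0.71 to 0.85) and the phosphatase *Inpp5d* at 0.06 (-0.64 to 0.75), and the adaptor *Card9*, also named after its values were seen, at -1.13 (-2.91 to 0.41). The ratio of *Clec7a*, 0.80, thus stood above those of the kinase and the phosphatase, but its own widened interval covers them.

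The 25 measured genes of lipid uptake, storage and efflux had a median of 0.16, with 16 higher and 9 lower. The widened interval was above 0 for 1, *Apoe*, and below 0 for 0, beside 1.53% and 0.407% of all genes and 7.94% above 0 in the highest range of reads, which holds *Apoe*. The interval of *Apoe* held 0 under library totals and under scaling to summed microglia markers, and its ratio was -0.22 (-0.41 to -0.03) with the length and GC trend removed. *Lrp1*, a large lipoprotein receptor, had a ratio of -0.24 (-0.56 to 0.08). Under library totals 2 genes of this list lay below 0, *Lrp1* at -0.38 (-0.70 to -0.06) and *Abca1*, a cholesterol exporter, at -0.34 (-0.67 to -0.0015). The ratio of *Fabp5* was therefore not matched by the bulk of the list, while that of *Lpl*, 0.44, lay closer to it. The MiT/TFE factors, which drive lysosomal genes including *Gpnmb*, had a median of -0.03 over 4 genes, 1 higher and 3 lower, with *Tfe3* at -0.01 (-0.93 to 0.90) and *Mitf* at -0.36 (-1.61 to 0.83).

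Of 8 measured genes of IGF signalling, 5 were higher and 3 lower, with a median of 0.16. The receptor *Igf1r* (1151 and 1938 reads) had a ratio of -0.56 (-1.66 to 0.47) and the related receptor *Insr* -0.18 (-1.38 to 0.99). The widened interval was above 0 for 3 of the 8, beside 1.53% of all genes. These were the binding proteins *Igfbp7* (1342 and 0 reads) and *Igfbp3* (373 and 0 reads) and the receptor *Igf2r* (567 and 82 reads). Under library totals 1 was left, *Igfbp7*, and with the length and GC trend removed 2, without *Igfbp3*. *Igfbp7* is made by vessel cells. Among relatives of the members by family, 11 had at least 20 reads, with a median of -0.55, 5 higher and 6 lower, and 0 widened intervals clear of 0. The most abundant were *Cst3* at 0.38 (-0.06 to 0.83) and *Lipa* at 0.19 (-0.65 to 1.02).

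Homeostatic microglial genes, the counterpart of the program, had a median of -0.09 over 21 genes, with 7 higher and 14 lower and 0 widened intervals clear of 0. *Csf1r*, the survival receptor of microglia, stood at -0.04 (-0.28 to 0.21). The 12 microglial markers were all measured, and their sum was 21282 CPM for Cd11c-active beside 20864 for Cd11c-lineage.

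Markers of other cells also differed between the libraries, and their part in the ratios of the 9 genes was not tested. All 10 endothelial markers were higher in Cd11c-active, 6 of them with 0 reads in Cd11c-lineage, and summed to 820 and 73.7 CPM. Of 7 mural cell markers 5 had at least 20 reads, 4 of these with 0 reads in Cd11c-lineage, and summed to 61.8 and 2.21. FABP5 is also made by endothelial cells, so these sums stand beside the 82.5 and 15.8 CPM of *Fabp5*. Border macrophage markers went the other way, with 4 of 6 measured, all 4 lower in Cd11c-active and 3 of them at 0 there, and sums of 21.2 and 128. *Mrc1*, the mannose receptor, had 262 and 1230 reads and a ratio of -2.04 (-4.42 to -0.24), the one interval of the 4 clear of 0, beside 0.407% of all genes with an interval below 0. These sums stand beside the reads of *Lilrb4a*, which was also lower in Cd11c-active by its ratio. Of the markers of pigment epithelium and melanocytes, cells known for *Gpnmb*, 1 of 8, *Rlbp1*, had at least 20 reads, with 94 and 0. *Pmel* with 0 and 10 reads and *Dct* with 0 and 7 went the other way, at very low counts. Retinal neuron markers, 8 of 13 measured, summed to 124 and 226, and those of Muller glia and astrocytes, 4 of 7, to 2426 and 2488, most of it *Glul* with 27773 and 33293 reads. In that list *Slc1a3*, named after its values were seen, had 73 and 642 reads and *Vim*, also a gene of the wider developmental list, 2069 and 1005. Monocyte and neutrophil markers, 4 of 6, summed to 2.83 and 17.0. Of the dendritic markers 1 of 5, *Zbtb46*, was measured, with 200 and 0 reads, and of the erythroid markers 1 of 5, *Hbb-bt*, with 0 and 31 reads. *Itgax* itself, which the sort is based on, had 2409 and 1698 reads, so the Cd11c-lineage library also held its transcript. Its ratio was 0.69 (widened -0.29 to 1.71), and it is counted in the wider developmental list.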

How the data were processed

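The study has 2 RNA libraries, Cd11c-active and Cd11c-lineage, 1 per group. The authors deposited raw counts per gene and, per the file headers, the log2 average of CPM and a log2 fold change. Per the submitters' processing notes, cutadapt 3.5, STAR 2.7.9a, featureCounts 1.6.3, edgeR 4.0.16 and GRCm39 were used. The annotation, the strand setting and the treatment of duplicates are not given in the sources used here. In the authors' deposited table the log2 fold change ran from -1.91 for Lilrb4a to 2.25 for Fabp5 among the 9 genes, without TMM scaling. Total reads were 12943998 and 13402625, and 0 columns were left unmapped. No listed gene had a sum under 6 reads, which points to a minimum set upstream.

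Library sizes were scaled with TMM in edgeR 4.0.16 (R 4.3.3), with factors of 0.954 for Cd11c-active and 1.05 for Cd11c-lineage. Ratios used reads plus 0.5, with exact Clopper-Pearson intervals at 95%, and genes with at least 20 reads as background. With 1 library per group, neither the quasi-likelihood test of edgeR nor DESeq2 had residual degrees of freedom, and no p-value is given. Overdispersion was the squared robust spread of log2 ratios divided by their counting SD, in doubling ranges from 200 reads up to an open range from 12800, and genes under 200 reads took that of the lowest range. Members were matched by the deposited gene names, and levels per kilobase used GENCODE transcripts of GRCm38, with a length for 99.7% of tested genes. No label names molecular identifiers. Where a gene has 0 reads, the limit of 3 reads is 0.243 and 0.214 CPM for counting error only, and 18.1 and 15.9 CPM when multiplied by the overdispersion of the lowest range. The procedure was tested on simulated data.

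The genes and lists were chosen with earlier results of these data known. All members were named. Of each other list, the 2 genes with the most reads and up to 6 genes of at least 200 reads with a widened interval clear of 0 were named, and in the marker lists counts mostly stand in for names. One gene that this rule selects is not reported here. The list medians given were the same, to 2 decimals, with genes at 0 reads set to the limit of 3 reads. Computation used Python 3.11.15, numpy 2.4.6, scipy 1.17.1 and pandas 2.3.3, with figures by matplotlib 3.10.9.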

Additional observations from a re-analysis of the deposited data

How the results depend on the processing

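The ratios of the 9 genes were recomputed with library totals, with the size factors of DESeq2 1.42.0, with TMM after leaving out structural RNA genes, scaled to the summed microglia markers, with 1 read added and with the trend of the ratio with length and GC content removed. Of 54 recomputed ratios, 53 kept their direction and stayed within the widened interval, and 1 reversed, *Igf1* at 0.046 with the trend removed. Library totals moved the median of all tested genes by -0.14. A change of scaling moves every gene by the same amount, and this was the largest such move. The ratio nearest to 0 was -0.25, for *Igf1*, so a change of scaling alone could reverse no ratio. *Fabp5*, *Lgals3*, *Gpnmb* and *Lilrb4a* stayed at least 2-fold apart in all 6 alternatives, and *Cst7* in 5, with 0.86 under trend removal. In calls recomputed after the data were seen, library totals left 0 genes of the lipid list above 0 and put 2 below (*Abca1* and *Lrp1*), and left 1 gene of IGF signalling above 0. Summed microglia markers left 0 of the lipid list above 0. Trend removal left 0 of the lipid list above 0 and 1 below, and 3 of the wider list above 0 and 1 below, the latter *Apoe* in both. The cause was not tested. With counting error only, 7 intervals lay above 0 and 2 below, against 1 and 0 with overdispersion. The share of all genes at least 2-fold higher or lower came to 14.1% and 12.2% from 200 reads upward, and to 5.43% and 4.14% from 1000 reads upward, since low counts spread more. *Fabp5* had an interval above 0 also with one overdispersion for all genes and with the spread of the middle 95%, but neither could change its call. The one overdispersion was that of its own range of reads, 83.7, so its interval stayed as it was. The middle 95% gave that range a smaller value, 68.4, so its interval could only narrow. No paired analysis was possible because each group has 1 library. Leaving out a replicate was not possible for the same reason. The widened intervals of *Gpnmb*, *Lgals3* and *Lilrb4a*, the genes with the fewest reads, are the broadest, while their counting intervals leave out 0.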
